A study of Mus musculus with 6 samples.

Results

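The genes described here encode the machinery of oxidative phosphorylation: the nuclear-encoded subunits of respiratory complexes I to IV and of ATP synthase (complex V), the cytochromes c, and the complex I assembly factors that carry Nduf symbols. Members were chosen by symbol alone, as every array cluster that the platform annotation assigns to 1 gene whose symbol begins with Nduf, Uqcr, Cox4, Cox5, Cox6, Cox7, Cox8 or Atp5, or is Sdha, Sdhb, Sdhc, Sdhd, Cycs or Cyct. This gave 91 genes of 19938 with a single-gene cluster. They comprise 34 complex I subunits, 7 complex I assembly factors, 4 complex II subunits, 8 complex III subunits, 2 cytochromes c, 18 genes of complex IV, the supercomplex factor Cox7a2l and 17 genes of ATP synthase. Of the 91, 90 passed a filter on low values (log2 intensity of 6 or more on at least 1 array) and were tested among 17925 genes. The exception was the assembly factor Ndufaf6, whose log2 intensity lay between 5.59 and 5.86 on the 6 arrays. Cox7c and Ndufb4 were measured only by clusters that list several genes and are outside the rule, as are the subunits encoded by mitochondrial DNA.

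RNA came from germ cells of C57BL/6 mice and was measured on 6 Affymetrix MoGene 1.0 ST arrays, each of which gives 1 intensity per transcript cluster. The groups were Rnf8 knockout (KO; RNF8-KO in the labels) round spermatids with 1 array, wild-type (WT) round spermatids with 1 array, KO pachytene spermatocytes with 2 arrays and WT pachytene spermatocytes with 2 arrays. Pachytene spermatocytes are germ cells in meiotic prophase, round spermatids are the haploid cells that follow the meiotic divisions, and Rnf8 encodes a ubiquitin ligase that acts on chromatin at DNA breaks and on sex chromosomes during meiosis. Cells of 3 to 4 males per genotype had been separated by gravity sedimentation, with purity above 95% judged by nuclear staining. The sources used here give neither the knockout allele nor the age of the males. Nor do they say whether replicate arrays came from separate animals, so the p-values rest on a spread that may be technical.

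Complexes I to IV pass electrons from NADH and succinate to oxygen and pump protons out of the mitochondrial matrix, and ATP synthase uses the returning protons to make ATP. Cytochrome c carries electrons between complexes III and IV. Several of these proteins exist in tissue forms encoded by separate genes. Male germ cells switch on testis forms, such as cytochrome c of testis (Cyct) and the complex IV subunits Cox6b2, Cox7b2 and Cox8c, beside the somatic forms Cycs, Cox6b1, Cox7b and Cox8a. Late spermatocytes and spermatids are known to draw on mitochondrial respiration, fed by lactate from Sertoli cells.

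The promoters of the cytochrome c pair and of the Cox6b pair are shown. In these pairs the ratio of testis to somatic form differed most between the genotypes in pachytene spermatocytes, a difference that was not tested. Each sequence runs from 250 bases before to 50 bases after the annotated start, 5′ to 3′ on the strand of the gene, from RefSeq on GRCm38.p6. Capitals mark a match to any of 4 motifs of regulators known for nuclear genes of mitochondria, searched on both strands: GCATGCGC (NRF1), CCGGAAGT (the ETS family, which includes GABP), AAGATGGC (YY1) and TGACGTCA (the cAMP response element, CRE).
Cyct (chr2:76360404-76360703, minus strand): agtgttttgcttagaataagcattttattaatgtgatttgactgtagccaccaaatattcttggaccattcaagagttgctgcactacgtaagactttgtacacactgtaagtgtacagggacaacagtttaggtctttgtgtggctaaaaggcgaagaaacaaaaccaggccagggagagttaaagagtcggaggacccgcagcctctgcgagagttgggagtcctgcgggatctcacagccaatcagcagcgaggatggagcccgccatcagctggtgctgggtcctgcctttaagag
Cycs (chr6:50566520-50566819, minus strand): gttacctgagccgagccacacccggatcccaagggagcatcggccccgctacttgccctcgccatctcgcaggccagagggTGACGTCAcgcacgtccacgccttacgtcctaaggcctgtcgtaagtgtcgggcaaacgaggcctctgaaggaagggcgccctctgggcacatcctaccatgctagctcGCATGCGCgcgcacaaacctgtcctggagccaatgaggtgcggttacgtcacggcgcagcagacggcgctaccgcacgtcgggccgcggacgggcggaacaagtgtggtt
Cox6b2 (chr7:4753045-4753344, minus strand): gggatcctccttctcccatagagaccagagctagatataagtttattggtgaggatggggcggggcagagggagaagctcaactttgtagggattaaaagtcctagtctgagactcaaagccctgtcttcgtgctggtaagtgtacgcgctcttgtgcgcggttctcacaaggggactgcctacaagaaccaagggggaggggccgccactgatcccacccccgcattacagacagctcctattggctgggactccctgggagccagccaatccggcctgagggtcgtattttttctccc
Cox6b1 (chr7:30626065-30626364, minus strand): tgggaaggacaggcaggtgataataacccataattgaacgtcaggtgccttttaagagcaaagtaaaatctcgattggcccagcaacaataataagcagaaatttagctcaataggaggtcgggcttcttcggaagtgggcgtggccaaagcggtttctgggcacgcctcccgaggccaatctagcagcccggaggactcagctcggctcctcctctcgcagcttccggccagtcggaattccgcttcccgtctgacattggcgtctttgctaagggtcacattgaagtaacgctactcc
In the Cycs window the CRE match begins at base -169 and the NRF1 match at base -60 from the start, and the other 3 windows hold none of the 4 motifs in these letters. Promoter windows were found for 75 of the 91 genes, 80 windows in all with alternative starts. NRF1 letters occurred in 16.2% of the 80 windows and in 2.71% of all 32851 windows of the table. The YY1 letters occurred in 12.5% and 2.75%, the CRE letters in 6.25% and 1.79%, and the ETS letters in 6.25% and 3.89%. A match is a description of letters, and binding was not measured.

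A principal component analysis of tested genes split the cell types on component 1 (77.65% of the variance). On component 2 (12.6%) the second KO pachytene array lay furthest out, at -26.9. The KO round spermatid array was on the same side at -13.5, and the remaining arrays were at 2.46 to 16.2. The only cluster of the targeted gene also lists Gm28043, a readthrough gene. It read 7.50 (log2 intensity) in KO and 7.78 in WT round spermatids, and 7.86 and 8.05 in KO against 8.51 and 8.86 in WT pachytene spermatocytes, lower in KO in both cell types. The sources do not say whether that cluster covers the deleted part. Of 13 round spermatid markers, 10 rose in round spermatids, yet their summed intensity was 40470 to 49870 on the pachytene arrays against 68352 and 69837 on the round spermatid arrays, so neither fraction lacked them. Of 11 pachytene markers 9 fell, with sums of 25392 to 25922 in round spermatids and 40808 to 45665 in pachytene spermatocytes. All 6 Leydig cell markers fell, with sums of 1044 to 1277 in round spermatids against 4689 to 6905 in pachytene spermatocytes, and 6 of 10 Sertoli cell markers fell, with sums of 3336 to 3896 against 5836 to 7526. Of 7 peritubular and vessel markers only Dcn changed, with a log2 difference of 2.86, and the summed intensity of the other 6 was 1609 to 1973 in round spermatids against 1588 to 1956 in pachytene spermatocytes, which overlap (Dcn was set aside after its values were seen), while 2 of 5 macrophage and blood markers and 1 of 9 spermatogonial markers rose. The part of these cells in the differences between the cell types was not tested. In such samples a lower intensity can mean fewer cells of a type or less RNA per cell, which cannot be told apart.

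Round spermatids differed little from pachytene spermatocytes in most oxidative phosphorylation genes. Of the 90 tested, 7 rose and 16 fell in round spermatids over both genotypes (limma, Benjamini-Hochberg adjusted p under 0.05), and 67 did not pass. That is 25.6% of the members, against 34.9% of all genes tested. The members that rose were 7.78%, against 17.8% of all genes, and those that fell were 17.8%, against 17.1%. Only 2 of the 90 (2.22%) lay at least 2-fold apart, against 11.4% of all genes. Within 1.5-fold lay 80 of the 90, a share that was not counted over all genes. The median log2 difference, round spermatids minus pachytene spermatocytes, was -0.07 over the members and -0.06 over all genes, with 53 of the 90 below 0 and 57.9% of all genes below 0. The intensities of the groups did not overlap for 48 members (53.3%), against 50.5% of all genes. A probe's intensity depends on its sequence, so levels are compared between arrays and never between genes.

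**Figure D1:**
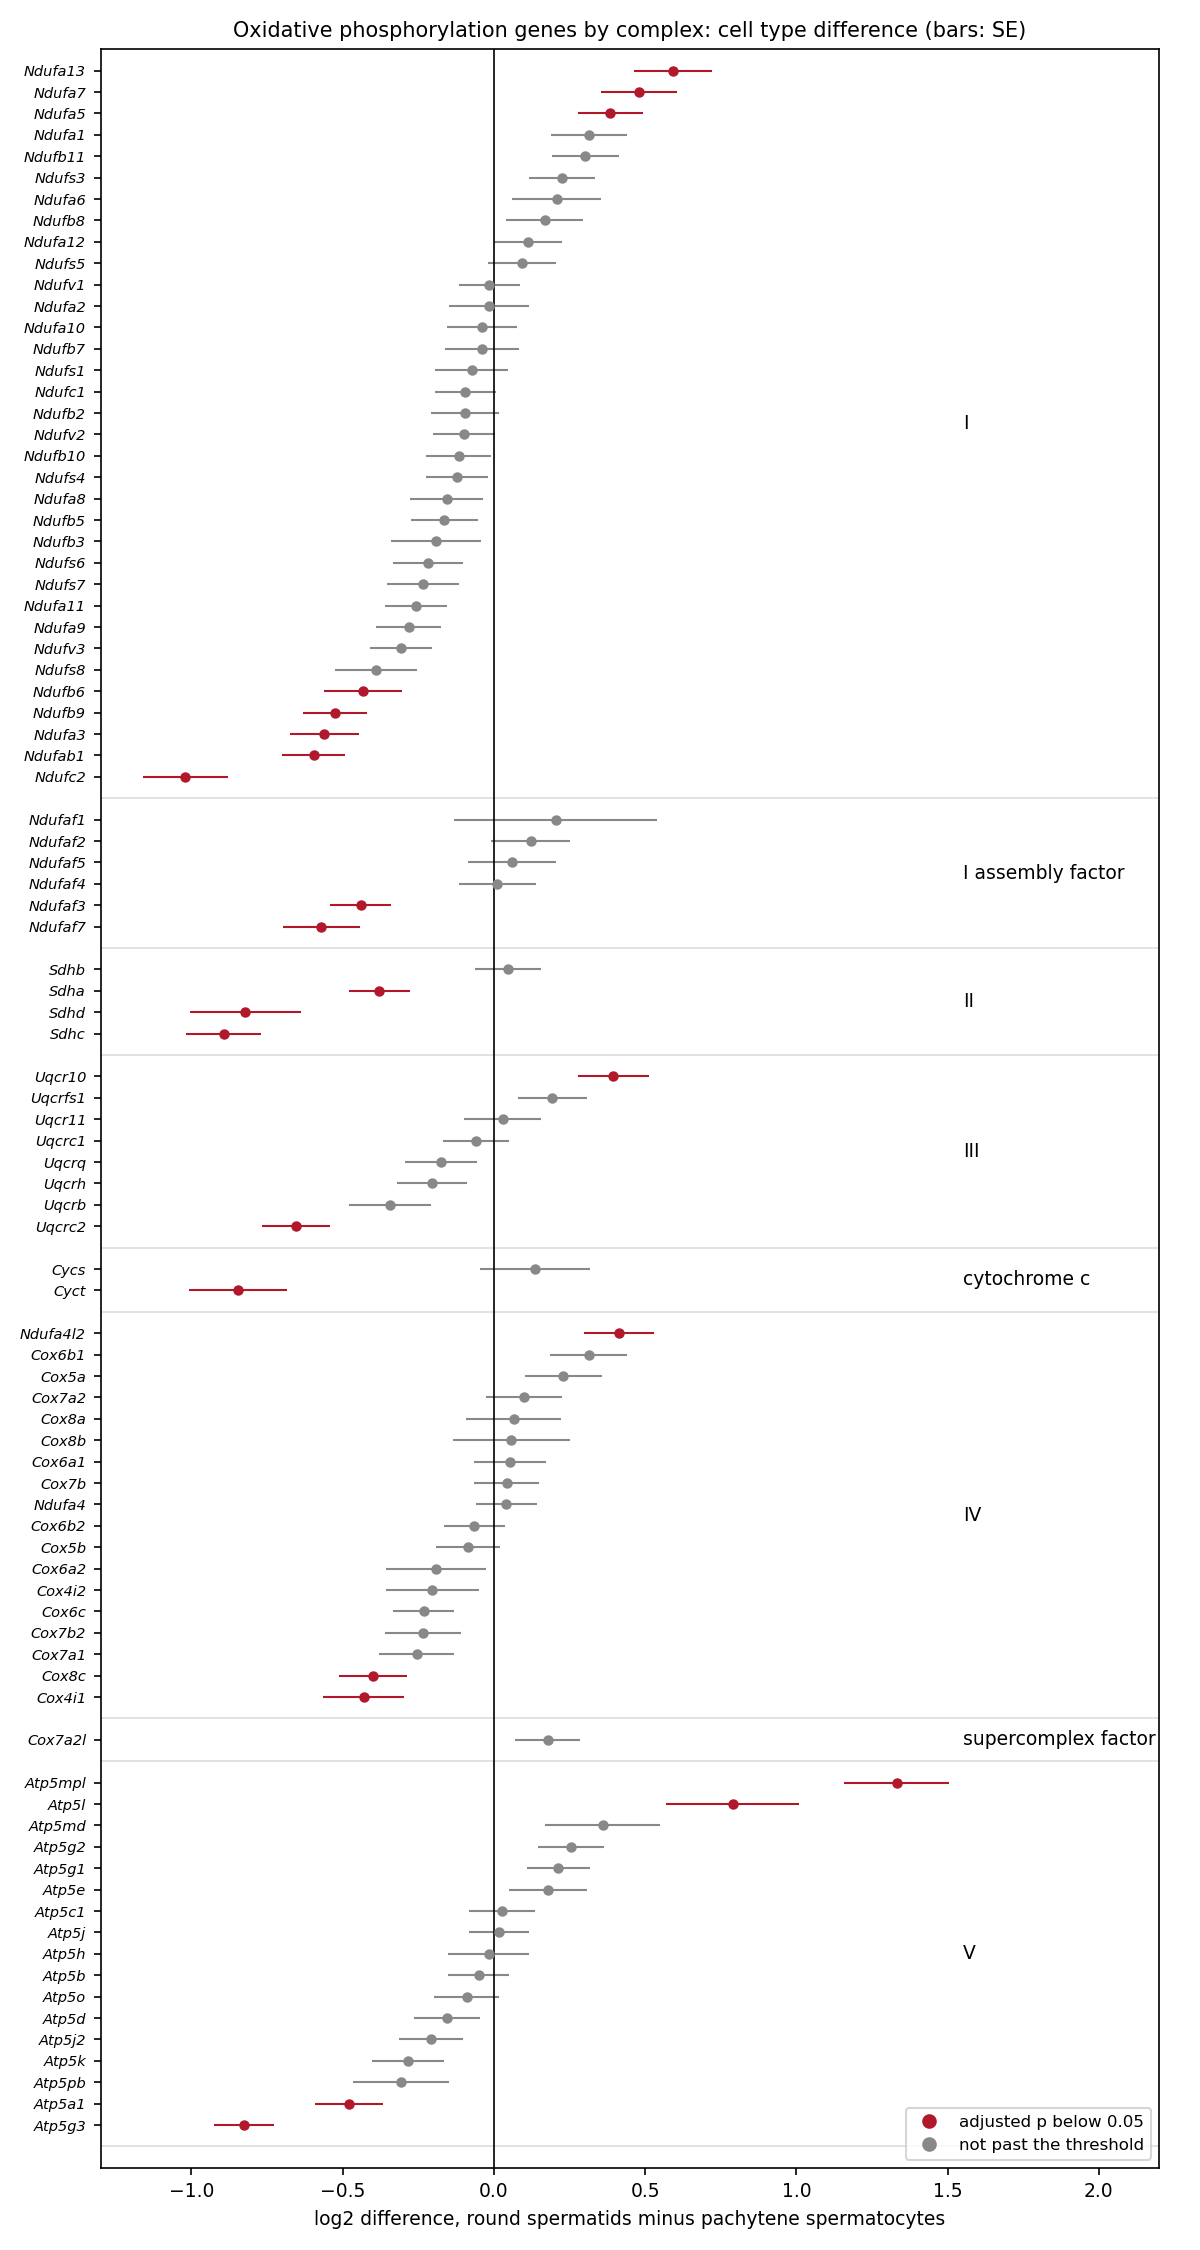
Log2 difference of each of the 90 tested genes, round spermatids (2 arrays) minus pachytene spermatocytes (4 arrays), sorted within complexes; points are fitted differences, bars are SE, and red marks an adjusted p under 0.05. Most points lie between -0.5 and 0.5; Ndufc2 at -1.02 and Atp5mpl at 1.33 are the extremes.

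In complex I, which takes electrons from NADH, 3 of 34 subunit genes rose and 5 fell. Ndufc2, an accessory subunit of the membrane arm, had a log2 intensity of 11.61 in KO and 11.12 in WT round spermatids, against 12.32 and 12.48 in KO and 12.27 and 12.45 in WT pachytene spermatocytes. Both round spermatid values lay below all 4 pachytene values, a log2 difference of -1.02 ± 0.14 (SE; 2.03-fold lower, adjusted p 0.00098). Ndufab1, the acyl carrier protein of mitochondria and a complex I subunit, had 9.50 in KO and 9.65 in WT round spermatids, against 10.18 and 10.07 in KO and 10.20 and 10.22 in WT pachytene spermatocytes. Its groups did not overlap and it fell by 0.60 (adjusted p 0.00283). The accessory subunits Ndufa3, Ndufb9 and Ndufb6 fell by 0.56, 0.52 and 0.43 on the log2 scale. The 3 that rose were accessory subunits as well. Ndufa13, also known as GRIM-19, had 11.08 in KO and 10.96 in WT round spermatids, against 10.43 and 10.26 in KO and 10.63 and 10.39 in WT pachytene spermatocytes, a log2 difference of 0.59 ± 0.13 (SE, adjusted p 0.00843). Ndufa7 rose by 0.48 and Ndufa5 by 0.38. None of the Ndufs and Ndufv genes, which include core subunits, passed the test. The iron-sulfur core subunit Ndufs8 had 11.22 in KO and 10.80 in WT round spermatids, against 11.29 and 11.55 in KO and 11.42 and 11.35 in WT pachytene spermatocytes, a log2 difference of -0.39 at an adjusted p of 0.0594.

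Of the 6 tested assembly factors with Ndufaf symbols, 2 fell and none rose. Ndufaf3, a factor for early assembly of complex I, had 12.55 in KO and 12.57 in WT round spermatids, against 13.03 and 13.00 in KO and 13.03 and 12.96 in WT pachytene spermatocytes. The 4 pachytene values lay close together and above both round spermatid values, and the log2 difference was -0.44 ± 0.10 (SE, adjusted p 0.0107). Ndufaf7, a methyltransferase that modifies a complex I core subunit, fell by 0.57 (adjusted p 0.00935). Ndufaf1 was the member with the widest replicate gap, 9.66 and 11.12 on the WT pachytene arrays, while the other 4 arrays lay between 10.49 and 10.71. No other member differed 2-fold within a replicate pair.

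Complex II, succinate dehydrogenase, was split. Both membrane anchors fell: Sdhc had 10.37 in KO and 10.11 in WT round spermatids, against 11.07 and 11.11 in KO and 11.10 and 11.27 in WT pachytene spermatocytes. The groups stood apart by more than the range within either, and Sdhc fell by 0.89 on the log2 scale (SE 0.12, adjusted p 0.00104). Sdhd had 10.08 in KO and 10.06 in WT round spermatids, against 10.71 and 11.13 in KO and 10.59 and 11.14 in WT pachytene spermatocytes. Its pachytene values differed within each pair, but all 4 were above the round spermatid values, and it fell by 0.82 (SE 0.18, adjusted p 0.00951). The flavoprotein Sdha, which oxidises succinate, had 11.36 in KO and 11.37 in WT round spermatids, against 11.76 and 11.82 in KO and 11.68 and 11.71 in WT pachytene spermatocytes, and fell by 0.38 (SE 0.10, adjusted p 0.0218). The iron-sulfur subunit Sdhb did not pass: it had 10.87 in KO and 10.74 in WT round spermatids, against 10.74 and 10.90 in KO and 10.75 and 10.64 in WT pachytene spermatocytes. Its groups overlapped, and the log2 difference was 0.05 (adjusted p 0.79).

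In complex III, which passes electrons to cytochrome c, 1 of 8 rose and 1 fell. Uqcrc2, a core protein, had 11.98 in KO and 11.90 in WT round spermatids, against 12.63 and 12.60 in KO and 12.46 and 12.69 in WT pachytene spermatocytes. The groups did not overlap, and it fell by 0.65 (SE 0.11, adjusted p 0.00274). The small subunit Uqcr10 rose by 0.39 (adjusted p 0.0335). The supercomplex factor Cox7a2l did not pass, at a log2 difference of 0.18 (adjusted p 0.263). In complex IV, cytochrome c oxidase, 1 of 18 rose and 2 fell. Cox4i1, the common form of a subunit that regulates the enzyme, had 11.06 in KO and 10.94 in WT round spermatids, against 11.38 and 11.57 in KO and 11.56 and 11.21 in WT pachytene spermatocytes. It fell by 0.43 (adjusted p 0.0383). Ndufa4l2, a hypoxia-induced relative of the complex IV subunit Ndufa4, rose by 0.41 (adjusted p 0.0245), and the testis form Cox8c fell, as given with its pair.

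In ATP synthase, 2 of 17 rose and 2 fell. Atp5mpl, a small proteolipid of the membrane part, had 11.12 in KO and 11.20 in WT round spermatids, against 10.07 and 9.46 in KO and 9.99 and 9.80 in WT pachytene spermatocytes. Every round spermatid value exceeded every pachytene value, a log2 difference of 1.33 ± 0.17 (SE; 2.52-fold higher, adjusted p 0.000775). Atp5l, which encodes subunit g of the membrane part, had 9.16 in KO and 9.54 in WT round spermatids, against 8.87 and 7.98 in KO and 8.70 and 8.68 in WT pachytene spermatocytes. Its second KO pachytene value was the lowest of the 6, and it rose by 0.79 (SE 0.22, adjusted p 0.0254). Atp5l has 6 single-gene clusters, with log2 differences of 0.70 to 0.87. They may share probe sequence or read copies of the gene, which was not tested, so they are not 6 separate measurements. Atp5a1, the alpha subunit of the catalytic head, fell by 0.48 (SE 0.11, adjusted p 0.0115).

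The proton-carrying c subunit is encoded by Atp5g1, Atp5g2 and Atp5g3, whose mature proteins are identical. Atp5g3 had 9.61 in KO and 9.62 in WT round spermatids, against 10.44 and 10.43 in KO and 10.45 and 10.45 in WT pachytene spermatocytes. The values within each cell type were nearly equal, and it fell by 0.83 (SE 0.10, adjusted p 0.000558). Atp5g1 had 11.98 in KO and 11.96 in WT round spermatids, against 11.84 and 11.82 in KO and 11.73 and 11.65 in WT pachytene spermatocytes, a log2 difference of 0.21 (adjusted p 0.162). Atp5g2 had 10.88 in KO and 10.82 in WT round spermatids, against 10.52 and 10.52 in KO and 10.73 and 10.63 in WT pachytene spermatocytes, a log2 difference of 0.25 (adjusted p 0.115). Neither of the other c subunit genes passed the test, though the groups did not overlap for either.

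**Figure D2:**
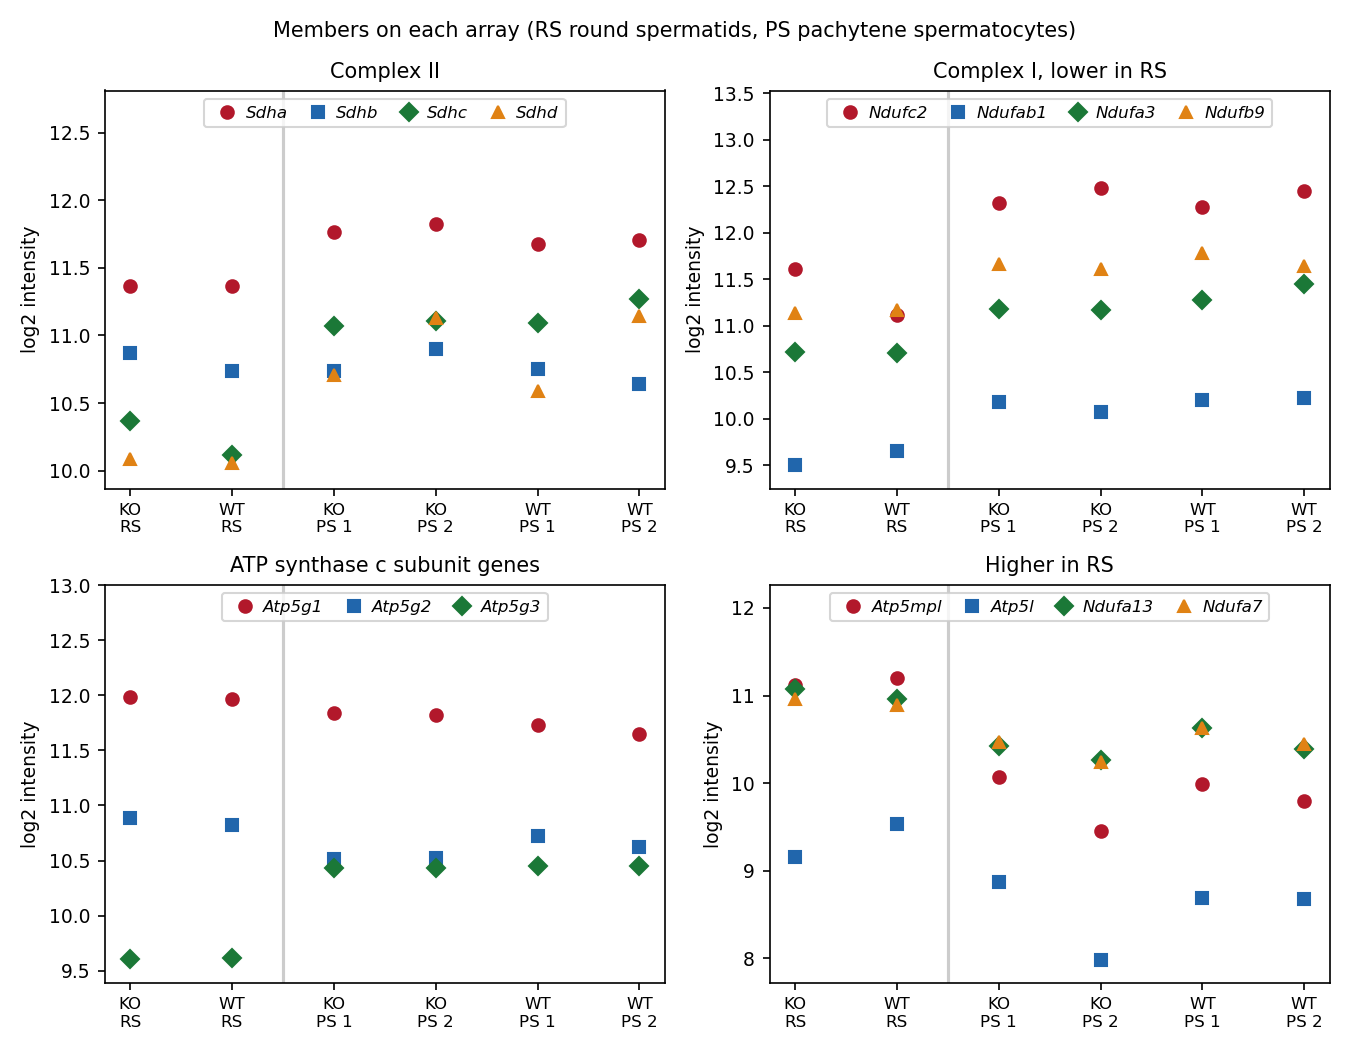
Log2 intensity (y axis) of single genes on each of the 6 arrays, round spermatids left of the grey line and pachytene spermatocytes right of it, in panels for complex II, complex I genes that fell, the c subunit genes of ATP synthase and genes that rose. Sdhb overlaps between the cell types, while Sdhc lies at 10.11 and 10.37 in round spermatids, below its 4 pachytene values of 11.07 to 11.27; heights are not comparable between genes.

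Leaving out single arrays moved the count of 23 between 5 and 33. It was 5 without the WT round spermatid array and 7 without the KO round spermatid array, where the remaining array stands alone for its cell type, 15 without the second WT pachytene array, and 33 without the first KO pachytene array. Without the second KO pachytene array, the one furthest out on the second component, it was 22. Over all 17925 genes the count of 6255 moved too. That count was 4933 without the second WT, 8849 without the first KO and 6527 without the second KO pachytene array. Atp5g3, Atp5mpl, Ndufc2 and Sdhc passed in each of these 6 fits, and all 23 kept their direction. Cyct, Ndufa3 and Uqcrc2 lost the call only without the WT round spermatid array, and Ndufa13 only without the KO one. The other 15 lost it when either round spermatid array was left out, and 9 of these, among them Sdha, Atp5l, Cox4i1 and Cox8c, also without 1 or more of the pachytene arrays. Cox4i1, Cox8c, Ndufa4l2, Ndufa5, Ndufb6 and Sdha also lost the call with the replicate number as a block and in the 4-group fit, and Uqcr10 in the 4-group fit.

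The testis forms were then set against their somatic counterparts. Cyct fell in round spermatids while Cycs did not pass. Cyct (cluster 10483851, chromosome 2) had 10.40 in KO and 10.59 in WT round spermatids, against 11.35 and 11.03 in KO and 11.26 and 11.73 in WT pachytene spermatocytes. The groups did not overlap, and the log2 difference was -0.85 ± 0.16 (SE; 1.80-fold lower, adjusted p 0.00447). It passed with every single array left out except the WT round spermatid array, where the adjusted p was 0.0819. Cycs (cluster 10528170, chromosome 6) had 10.95 in KO and 10.75 in WT round spermatids, against 11.22 and 10.65 in KO and 10.33 and 10.66 in WT pachytene spermatocytes, with overlap and a log2 difference of 0.14 (adjusted p 0.633). This is the brightest of 3 single-gene clusters, and the chromosome is that of the gene. The position of the cluster was not used, so signal from a copy of Cycs elsewhere cannot be told apart. This holds for the Cyct to Cycs ratios too. The dimmest cluster (10544687) read 5.60 to 5.88, below the filter on every array. The log2 differences of the 3 clusters ran from 0.07 to 0.14.

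Cox8c, the testis form of a small complex IV subunit (cluster 10397907, chromosome 12), had 11.55 in KO and 11.49 in WT round spermatids, against 11.83 and 11.93 in KO and 12.06 and 11.85 in WT pachytene spermatocytes. It fell by 0.40 (SE 0.11, adjusted p 0.0271) with no overlap. The call was lost when either round spermatid array or either WT pachytene array was left out, with an adjusted p of up to 0.339. The somatic form Cox8a (cluster 10465633, chromosome 19) had 9.54 in KO and 9.44 in WT round spermatids, against 9.11 and 9.64 in KO and 9.49 and 9.46 in WT pachytene spermatocytes, a log2 difference of 0.07 (adjusted p 0.799).

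Cox6b2, the testis form of a subunit on the intermembrane side of complex IV (cluster 10559649, chromosome 7), had 12.48 in KO and 12.57 in WT round spermatids, against 12.48 and 12.50 in KO and 12.72 and 12.67 in WT pachytene spermatocytes. The cell types overlapped, with a log2 difference of -0.06 (adjusted p 0.692). Cox6b1, its somatic form (cluster 10562059, chromosome 7), had 9.83 in KO and 9.63 in WT round spermatids, against 9.64 and 9.76 in KO and 9.06 and 9.20 in WT pachytene spermatocytes. Its log2 difference between the cell types was 0.31 (adjusted p 0.0981), and the WT pachytene arrays were the lowest. Cox7b2 (cluster 10530417, chromosome 5) had 10.06 in KO and 10.16 in WT round spermatids, against 10.41 and 10.26 in KO and 10.52 and 10.20 in WT pachytene spermatocytes, a log2 difference of -0.23 (adjusted p 0.207). Cox7b, an X-linked gene, was read from its brighter cluster (10358709), whose genomic position was not used here, so that signal from a copy of the gene elsewhere cannot be told apart. That cluster had 9.10 in KO and 9.15 in WT round spermatids, against 9.13 and 9.01 in KO and 9.04 and 9.17 in WT pachytene spermatocytes, a log2 difference of 0.04 (adjusted p 0.81). A dimmer second cluster (10601356) disagreed, with a log2 difference of -0.34, so the direction of Cox7b is uncertain. In 17 of the 18 members with several clusters all clusters ran the same way.

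The ratio of testis to somatic form within each array shows unequal change, without comparing the forms' amounts. As a log2 difference of the members of a pair, the Cyct to Cycs ratio was -0.55 in KO and -0.16 in WT round spermatids, against 0.12 and 0.39 in KO and 0.93 and 1.08 in WT pachytene spermatocytes. Both round spermatid values were below all pachytene values, and the mean difference was -0.98. The Cox8c to Cox8a ratio had 2.00 in KO and 2.06 in WT round spermatids, against 2.72 and 2.30 in KO and 2.57 and 2.39 in WT pachytene spermatocytes, a mean difference of -0.47 with no overlap. The Cox7b2 to Cox7b ratio differed by -0.28, also with no overlap (-0.09 with the mean of the Cox7b clusters), and the Cox6b2 to Cox6b1 ratio by -0.38, with overlap. In a two-sided exact permutation test over 2 against 4 arrays, p was 0.133 for Cyct, 0.0667 for Cox8c, 0.2 for Cox7b2 and 0.333 for Cox6b2, and 0.267 to 0.333 after Benjamini-Hochberg adjustment over the 4 pairs. The 15 arrangements of the arrays allow no p below 0.0667, so this design cannot pass 0.05.

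**Figure D3:**
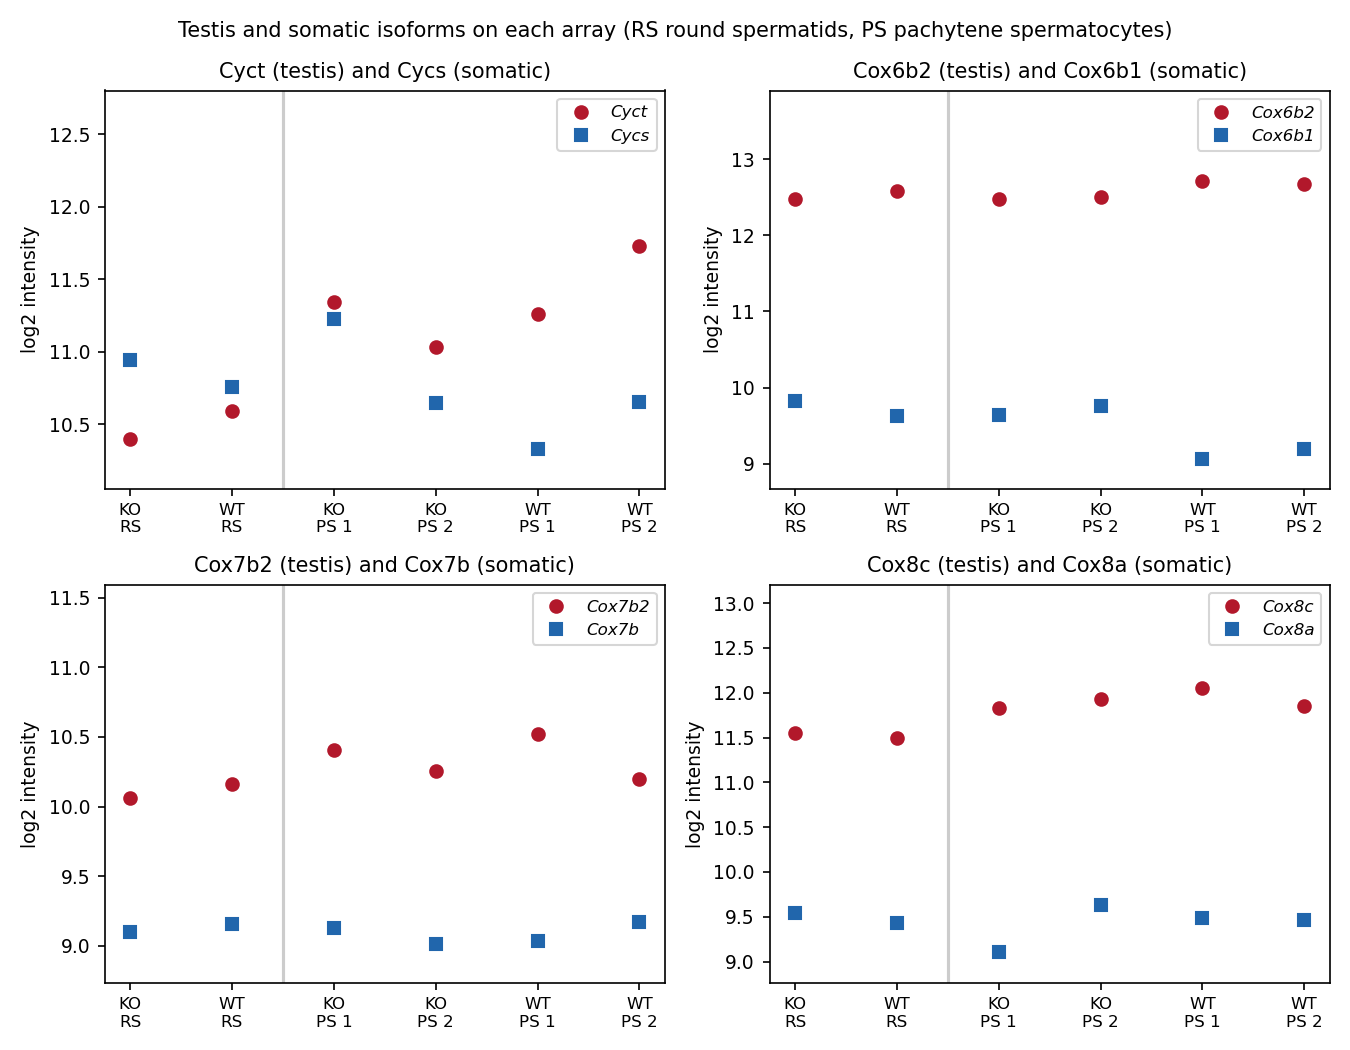
Log2 intensity (y axis) of the testis form (red circles) and the somatic form (blue squares) of 4 pairs on each array, round spermatids left of the grey line and pachytene spermatocytes right of it. Cyct lies at 10.40 and 10.59 in round spermatids, below its 4 pachytene values of 11.03 to 11.73, and Cox6b1 is lowest on the WT pachytene arrays, at 9.06 and 9.20; the height of one gene against the other is not comparable.

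Forms known from other tissues did not pass between the cell types, apart from Ndufa4l2. The log2 difference was -0.20 for Cox4i2, the lung form (adjusted p 0.381), -0.19 for Cox6a2 (adjusted p 0.446) and -0.26 for Cox7a1 (adjusted p 0.161), both forms of heart and skeletal muscle, and 0.06 for the muscle form Cox8b (adjusted p 0.858). Of their common counterparts, Cox4i1 fell by 0.43 (adjusted p 0.0383). Cox6a1, Cox7a2, Cox8a and Ndufa4 had 0.05, 0.10, 0.07 and 0.04, none of these past the threshold. Ndufa4 read low on every array, at a log2 intensity of 6.80 to 6.88, where the lower quartile of an array was 6.15 to 6.28. Cox7a1 at 6.79 to 7.31 and Cox8b at 6.92 to 7.61 were low too. Whether a change in these low readings could be missed was not tested. Ndufa4l2 had 9.37 in KO and 9.48 in WT round spermatids, against 8.77 and 8.95 in KO and 9.22 and 9.12 in WT pachytene spermatocytes, higher on both round spermatid arrays than on any pachytene array. The ratio of the tissue form to the common form, round spermatids minus pachytene spermatocytes, differed by 0.23 for Cox4i2 to Cox4i1, -0.24 for Cox6a2 to Cox6a1, -0.36 for Cox7a1 to Cox7a2, -0.01 for Cox8b to Cox8a and 0.37 for Ndufa4l2 to Ndufa4. Their two-sided exact permutation p ran from 0.133 to 0.933 before adjustment, in the same 15 arrangements. The Ndufa4l2 to Ndufa4 ratio mostly reflects the change in Ndufa4l2, since Ndufa4 was low and nearly flat. Outside the members, the testis form of the pyruvate dehydrogenase alpha subunit was given the same comparison: the Pdha2 to Pdha1 ratio had 2.65 in KO and 2.96 in WT round spermatids, against 3.26 and 2.84 in KO and 3.18 and 3.33 in WT pachytene spermatocytes, which overlap.

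The X-linked members were Ndufa1, Ndufb11 and Cox7b. The X chromosome is silenced in pachytene spermatocytes. None of the 3 passed between the cell types. Ndufb11, of the membrane arm of complex I, had 9.29 in KO and 9.42 in WT round spermatids, against 9.08 and 9.15 in KO and 9.02 and 8.96 in WT pachytene spermatocytes, a log2 difference of 0.30 (adjusted p 0.0735). These values are from its brighter cluster (10525471), whose genomic position was not used here. Signal from a copy of Ndufb11 elsewhere cannot be told apart. A dimmer cluster (10603837) had a log2 difference of 0.29. Ndufa1, a small complex I subunit, had 7.34 in KO and 6.97 in WT round spermatids, against 7.11 and 6.78 in KO and 6.78 and 6.70 in WT pachytene spermatocytes, a log2 difference of 0.31 (adjusted p 0.0956).

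Within single genotypes fewer genes passed. Each of these comparisons rests on 1 round spermatid array that is assumed to vary like the pachytene pairs. In KO, 2 members rose and 3 fell, 5.56% of the 90, against 15.5% of all genes called (8.36% higher and 7.18% lower). Those that rose were Atp5mpl by 1.35 and Ndufa13 by 0.73 on the log2 scale, and those that fell were Atp5g3 by 0.82, Ndufc2 by 0.79 and Sdhc by 0.72. In WT, 1 member rose and 6 fell, 7.78% of the 90, against 20% of all genes called (11.5% higher and 8.45% lower). Atp5mpl rose by 1.31, and Ndufc2, Sdhc, Cyct, Atp5g3, Uqcrc2 and Ndufa3 fell by 1.25, 1.07, 0.90, 0.83, 0.68 and 0.66. Atp5mpl, Atp5g3, Ndufc2 and Sdhc passed in both genotypes. These are the fits that leave out the other genotype's round spermatid array, with counts of 5 and 7, and add no separate support. Of the 90 members 80 had the same sign in both genotypes, a share that was not counted over all genes. The calls depend on single arrays: leaving out 1 array gave 1 to 10 members in KO and 0 to 15 in WT, with 0 when the second WT pachytene array was left out. The difference between the genotypes was tested as an interaction: limma called 0 of 17925 genes and 0 members. At an unadjusted p under 0.05 it gave 130 genes (0.725%) and 0 members, and the smallest unadjusted p of a member was 0.138, for Ndufc2, which fell by less in KO (interaction 0.45 ± 0.27, SE, on the log2 scale). The other extremes were Ndufs8 at 0.39 and Ndufa2 at 0.38, and Atp5pb at -0.41, Cox6b1 at -0.38 and Ndufaf5 at -0.34.

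The loss of Rnf8 was followed by no called change in an oxidative phosphorylation gene. In pachytene spermatocytes limma called 0 of 17925 genes (0%) and 0 of 90 members at an adjusted p under 0.05. At an unadjusted p under 0.05 there were 430 genes (2.4%) and 3 members (3.33%). Over both cell types it called 0 genes and 0 members, with 979 genes (5.46%) and 3 members at an unadjusted p under 0.05, and the smallest adjusted p of a member was 0.662, for Cox6b1. The groups did not overlap in pachytene spermatocytes for 28 members (31.1%), against 25% of all genes. The members lay above 0, that is higher in KO, for 42 of 90, against 59.9% of all genes.

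The 3 members below an unadjusted p of 0.05 in pachytene spermatocytes were Cox6b1, Uqcr11 and Ndufb10. Cox6b1 averaged 9.70 ± 0.08 in KO and 9.13 ± 0.10 in WT pachytene spermatocytes (SD, n = 2 each), a log2 difference of 0.57 ± 0.15 (SE). In round spermatids the single arrays differed by 0.19 in the same direction. Uqcr11, a small subunit of complex III, had 9.73 and 9.44 in KO against 9.08 and 9.05 in WT pachytene spermatocytes, a log2 difference of 0.52, and 9.47 in KO against 9.24 in WT round spermatids. For both genes every KO value exceeded the WT values of the same cell type. Ndufb10, a complex I subunit of the membrane arm, had 8.81 and 8.77 in KO against 9.13 and 9.20 in WT pachytene spermatocytes, a log2 difference of -0.38. It had 8.78 in KO and 8.94 in WT round spermatids, lower in KO in both cell types. Ndufb10 and Rnf8 both lie on chromosome 17, and the part of flanking DNA carried with the targeted allele was not tested. None of the 3 passed after adjustment, with an adjusted p of 0.999985 for each in pachytene spermatocytes.

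The next largest differences in pachytene spermatocytes were Cycs at 0.44 ± 0.23 (SE), Ndufa4l2 at -0.31 ± 0.15 and Cyct at -0.31 ± 0.21. The KO and WT arrays overlapped for Cycs and for Cyct, and with single arrays left out Cycs ranged from 0.15 (without the first KO array) to 0.73 (without the second KO array) and Cyct from -0.54 (without the first WT array) to -0.07 (without the second WT array). Cox6b2 differed by -0.20, with no overlap. The Cyct to Cycs ratio, KO minus WT, differed by -0.75 on the log2 scale in pachytene spermatocytes (0.12 and 0.39 in KO against 0.93 and 1.08 in WT) and by -0.39 in round spermatids. The Cox6b2 to Cox6b1 ratio was 2.83 and 2.74 in KO against 3.65 and 3.47 in WT pachytene spermatocytes, a difference of -0.77, and 2.66 in KO against 2.94 in WT round spermatids. In pachytene spermatocytes the ratios of the other pairs differed by 0.0053 for Cox7b2 to Cox7b and by 0.02 for Cox8c to Cox8a. No test was made of a ratio between the genotypes.

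In round spermatids each genotype has 1 array, so there is no replicate check and no p-value. No member differed 2-fold, against 69 genes (0.385%). The members that were highest in KO relative to WT were Ndufc2 (11.61 in KO and 11.12 in WT, a log2 difference of 0.49), Ndufs8 (0.42) and Ndufa1 (0.36). The lowest were Ndufaf5, an assembly factor (6.94 in KO and 7.41 in WT, a log2 difference of -0.48), Ndufb3 (-0.41) and Atp5pb, the peripheral stalk subunit b of ATP synthase (-0.39). Of the 90 members 42 lay above 0, against 59.1% of all genes. The sign was the same in both cell types for 52 members (57.8%), against 66.1% of all genes.

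**Figure D4:**
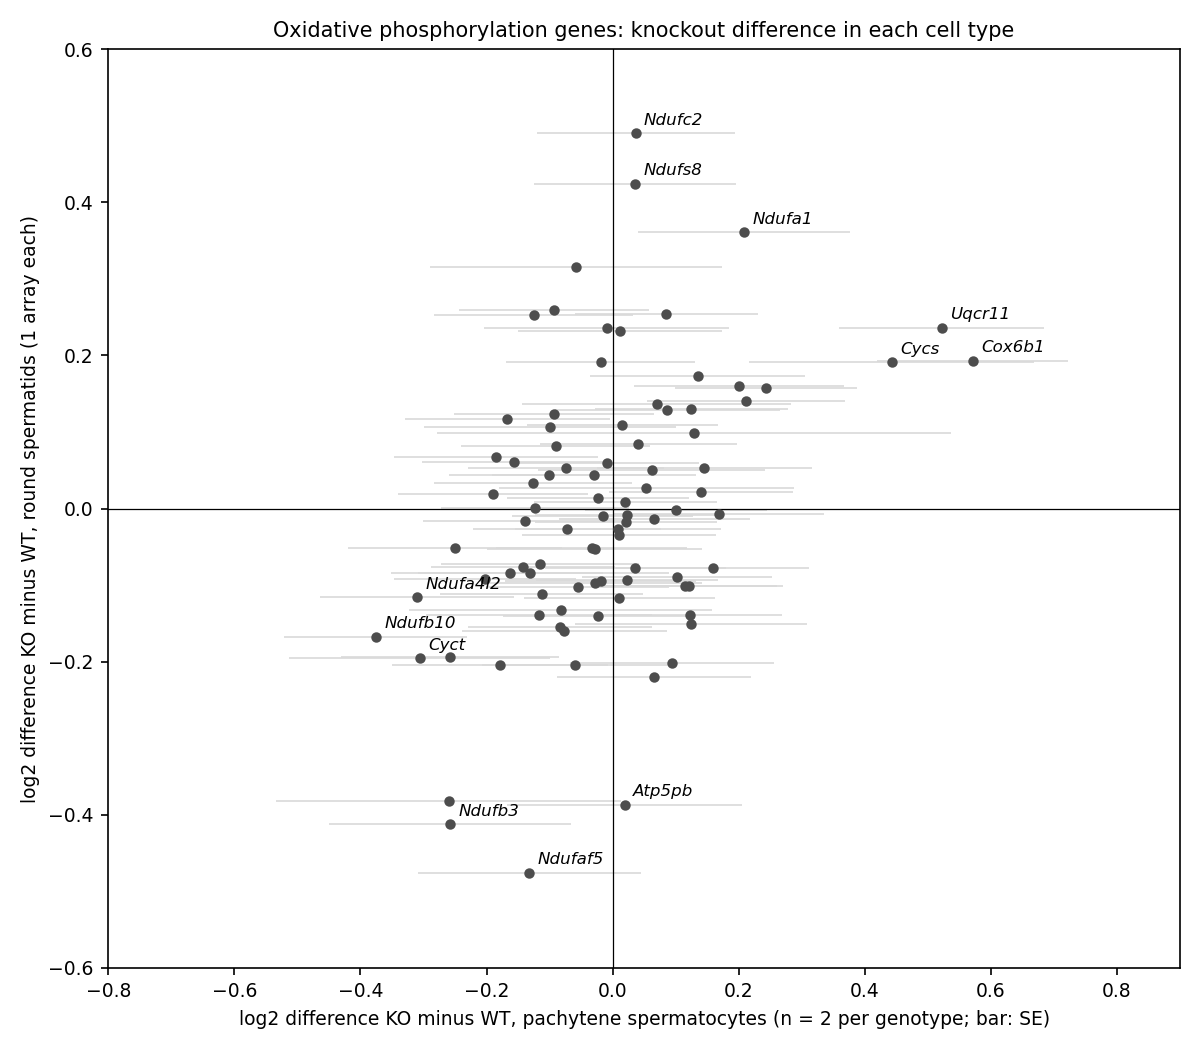
Log2 difference KO minus WT of the 90 tested genes in pachytene spermatocytes (x axis, 2 arrays per genotype, bars are SE) and in round spermatids (y axis, 1 array per genotype, no error). Cox6b1 at 0.57 and Ndufb10 at -0.38 are the extremes on the x axis and Ndufc2 at 0.49 and Ndufaf5 at -0.48 on the y axis, and no gene passed an adjusted p of 0.05.

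Other genes of mitochondrial energy metabolism were read from 4 lists. Between the cell types 34.9% of all genes were called, 17.8% higher and 17.1% lower. No list was tested against these shares. Of 45 tested assembly factors outside the member rule, 5 rose and 16 fell. Lyrm7 and Uqcc1, which assemble complex III, rose by 1.25 and 1.17 on the log2 scale, whereas Sdhaf1, which helps to mature Sdhb, fell by 0.93 and Cox10, which makes a heme precursor for complex IV, fell by 0.88. Of 26 genes of the tricarboxylic acid cycle and pyruvate dehydrogenase, 5 rose and 4 fell. The largest were Pdk3, a kinase that inhibits pyruvate dehydrogenase, at 1.60 and Pdp1, the phosphatase that reverses it, at 1.33, and on the other side Dlst of the cycle at -0.66 and pyruvate carboxylase Pcx at -0.51.

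Of 24 genes for mitochondrial DNA, its transcription and biogenesis, 4 rose and 8 fell. Tfam, which packages mitochondrial DNA and takes part in starting its transcription, had 9.40 in KO and 9.82 in WT round spermatids, against 8.84 and 7.45 in KO and 8.14 and 8.25 in WT pachytene spermatocytes, a log2 difference of 1.44 ± 0.33 (SE, adjusted p 0.0109). Its KO pachytene arrays lay further apart than the WT pair. Top1mt, the mitochondrial topoisomerase, rose by 0.95, while the translation initiation factor Mtif2 fell by 1.41 and the transcription factor Yy1, which had 9.92 in KO and 9.69 in WT round spermatids against 11.04 to 11.18 in pachytene spermatocytes, fell by 1.29. Of 77 genes listed by their Mrpl and Mrps symbols alone, 6 rose and 22 fell, with Mrps36 at 1.34 and Mrpl22 at 0.90, and Mrpl45 at -1.48 and Mrpl9 at -1.20. Most such symbols name mitochondrial ribosomal proteins, but a symbol does not settle what a gene encodes, Mrps36 included. The KO pachytene arrays of Mrps36 lay apart, at 8.18 and 7.04. The median log2 difference was -0.30 over the assembly factors, -0.07 over the cycle genes, -0.14 over the mitochondrial DNA genes and -0.17 over the Mrpl and Mrps genes. Over all genes it was -0.06.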

How the data were processed

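The authors deposited a linear intensity per transcript cluster. Per the submitters' processing notes it came from RMA in Affymetrix Expression Console 1.1; the sources used here give no background or normalization options. Because the design had assumed log2 values, the deposited intensity was first put on the log2 scale. Median intensity per array lay between 197 and 218; the number of arrays limits the precision. Of 35556 clusters, 21789 carried 1 gene symbol in the platform annotation, 1621 several, and 12146 were not listed. A gene's cluster of highest mean was used, and a gene was tested if 1 array or more reached a log2 of 6. All 91 members matched a RefSeq table of GRCm38.p6 by gene identifier, which gave chromosomes and promoters.

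Groups were taken from the sample titles. Tests used limma 3.58.1 in R 4.3.3 (lmFit, eBayes, Benjamini-Hochberg over all genes tested, threshold 0.05). An additive fit with terms for genotype and cell type (3 residual degrees of freedom) gave the cell type and genotype effects, and a fit of 4 groups (2 residual degrees of freedom, all from pachytene arrays) gave comparisons within genotypes or cell types and the interaction. The fit was run on simulated data with independent noise to check that set differences were recovered. That check cannot show whether the real replicate arrays vary like separate animals. Members, lists and tests were chosen with earlier results of these data known. Named with values are both forms of every isoform pair, every member past the threshold between cell types, the 3 largest knockout differences and interactions each way, Sdha to Sdhd, Atp5g1 to Atp5g3 and X-linked members. Of listed genes, the largest changes among those past the threshold are named. Replicate numbers did not pair the arrays: deviations of same-numbered pachytene arrays correlated at -0.227. Alternatives were normalization, filters, clusters, prior, model, single arrays left out and the replicate block.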

Additional observations from a re-analysis of the deposited data

How the results depend on the processing

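The count of 23 members between the cell types lay between 16 and 27 under other normalizations, filters, cluster rules, priors and the mean of the genotypes in a 4-group fit, and all 23 kept their direction. With single arrays left out it ranged from 5 to 33, and over all genes the count of 6255 was 2786 without the WT and 3577 without the KO round spermatid array. The KO count of 5 was 12 with a trended, robust prior and ranged from 1 to 10 with single arrays left out, and the WT count of 7 ranged from 0 to 15. Without a genotype's round spermatid array, its cell type difference and the interaction have no value. The causes were not tested. No setting called a member for KO against WT in pachytene spermatocytes or over both cell types, or for the interaction. With the replicate number as a block, 17 members passed between the cell types (5 rose, 12 fell), and for KO against WT in pachytene spermatocytes 0 members and 43 genes passed. With the numbers of the KO pair crossed, chosen after seeing the data, it was 0 members and 88 genes. Among the named genes, signs reversed only for some past no threshold: Cox7b to -0.15 with the mean of its clusters; Cox8b to -0.11 and Cox8a to -0.059 with the block. With single arrays left out, Cox6a1 ranged from -0.013 to 0.11, Cox8b from -0.13 to 0.24 and Cox8a from -0.062 to 0.17.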
